A study of Homo sapiens with 10 samples.

Results

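The 38 hepatocyte identity genes described here are listed by name and were taken from the liver's best-known products: 24 secreted plasma proteins, 10 liver enzymes, transporters and a receptor, and 4 liver transcription factors. All 38 were found by symbol among 20037 protein-coding genes on chromosomes 1 to 22, X and Y of a RefSeq table of GRCh38.p14. Each was set against a list of 10536 regions in which the repressive histone mark H3K9me3 was called. The list comes from BJ cells, a human foreskin fibroblast line, that received siRNA against ERH, a small nuclear protein, at 5 nM in 2 rounds given 3 days apart. H3K9me3 was profiled by CUT&RUN, in which an antibody on permeabilised cells directs a nuclease to cut out the DNA around the mark. Of the 10 samples of the study, the 3 H3K9me3 samples with ERH siRNA are pooled in this list; the 3 H3K9me3 samples with control siRNA and the SOX2 samples were not analysed here. The study asks whether ERH holds alternative cell fates silent, and hepatocyte genes belong to such a fate in a fibroblast. A region in the list shows where the mark was called after ERH knockdown, and the list carries no value for control cells, for single samples or for sequencing depth. No value below therefore has an SD between replicates, no knockdown effect is given and no test between groups was possible.

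Hepatocytes are the main cells of the liver. They secrete most plasma proteins, among them albumin, clotting factors and the apolipoproteins that carry lipids in blood, and they run the urea cycle, gluconeogenesis and amino acid breakdown. A network of transcription factors, with HNF4A, HNF1 and C/EBP proteins and the FOXA proteins that can bind closed chromatin, switches these genes on during development. Many of these genes are silent in many other cell types, but not all of them in all. Whether each member is silent in BJ cells was not measured here. H3K9me3, laid down by histone methyltransferases and bound by HP1 proteins, is among the marks associated with silencing of genes of other lineages.

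Only 1 of the 38 genes shared at least 1 bp with a region. That is 2.63% (Wilson 95% interval 0.466 to 13.5%), beside 10.5% of all protein-coding genes, a share that lies within the interval. The gene was TF, which encodes transferrin, the iron carrier of plasma. The enzymes, transporters and receptor had 0 of 10 (3 counts would be 30%) and the transcription factors 0 of 4 (3 counts would be 75%). The 3 counts stand for the limit that a count of 0 allows, a rough measure that differs from the Wilson interval and is too wide for few genes. The Wilson 95% upper limits are 27.8% for the 10 genes and 49.0% for the 4. Intervals and limits cover counting error only, and genes that lie next to each other are not independent.

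Gene length sets much of the room for an overlap. Of all protein-coding genes, 0.755% of those under 10 kb overlapped a region, 5.87% of those from 10 to 50 kb and 25.3% of those over 50 kb. The members were short, with a median length of 13.6 kb against 24.1 kb for all protein-coding genes. There were 33 members of up to 50 kb, and 0 of them overlapped, which allows up to 9.09%. Of the 5 members over 50 kb (CPS1, GC, HNF4A, SLCO1B1 and TF), 1 did. Applied to the members, the shares of these length classes add up to 2.38 genes, or 6.27%, beside the 1 gene observed. This difference was not tested.

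To show what lies at gene starts, the 300-base windows around the start (250 bases before to 50 after) were taken from RefSeq, build GRCh38.p14, where the table held an entry. It held 26 of the 38 members; GC, TTR, APOA1, APOB, APOC3, SERPINC1, HP, C3, TAT, ASGR1, PCK1 and FOXA2 had none. None of the 26 windows overlapped a region, which allows up to 11.5%. Of the 15860 windows of protein-coding genes, 24 did, or 0.151%. Both strands of each window were searched for letters that liver factors are known to prefer. The HNF1 letters GTTAATNAT were found in 5 member windows (AFP, ALB, FGA, G6PC1 and SLCO1B1) and in 0.549% of all windows. The C/EBP letters TTGCNNAA were found in 8 (AFM, AFP, AHSG, ALB, FGA, FGB, HPX and SLC10A1) and in 8.36% of all windows. The HNF4 letters CAAAGTCCA were found in AHSG alone among the members and in 0.315% of all windows, and the FOXA letters TGTTTAC in APOA2 alone and in 2.62%. No matches overlapped each other. A match is a description of the letters, not a bound site. Each gene had a single window, and whether its start is the one used in hepatocytes was not checked. The lack of a match therefore holds for that window only, not for other starts of the gene.

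The 250 bases before the start are printed for the 5 members whose window held the HNF1 letters, since HNF1 is a classic activator of liver promoters and all 5 starts lay outside the regions. Capitals mark the HNF1 and C/EBP letters on either strand, and sequences run 5′ to 3′ on the gene's strand. The leftmost base of the HNF1 match lay 61 bases before the start in ALB, 132 in AFP, 55 in FGA, 226 in G6PC1 and 51 in SLCO1B1.
ALB, chr4:73404037-73404286, plus strand: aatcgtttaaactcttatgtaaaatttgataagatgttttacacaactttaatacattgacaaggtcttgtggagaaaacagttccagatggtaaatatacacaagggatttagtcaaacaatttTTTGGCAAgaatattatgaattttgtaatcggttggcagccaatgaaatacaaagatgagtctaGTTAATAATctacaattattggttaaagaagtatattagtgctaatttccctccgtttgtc
AFP, chr4:73435971-73436220, plus strand: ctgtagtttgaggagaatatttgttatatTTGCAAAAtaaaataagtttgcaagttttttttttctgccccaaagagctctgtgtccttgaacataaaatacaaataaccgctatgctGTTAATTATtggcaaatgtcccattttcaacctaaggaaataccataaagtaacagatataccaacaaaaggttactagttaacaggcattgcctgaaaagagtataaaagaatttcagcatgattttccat
FGA, chr4:154590743-154590992, minus strand: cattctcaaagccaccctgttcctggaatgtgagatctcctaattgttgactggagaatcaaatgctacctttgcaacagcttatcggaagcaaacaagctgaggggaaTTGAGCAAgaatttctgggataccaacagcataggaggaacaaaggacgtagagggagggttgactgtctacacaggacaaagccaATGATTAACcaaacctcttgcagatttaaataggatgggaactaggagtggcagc
G6PC1, chr17:42900549-42900798, plus strand: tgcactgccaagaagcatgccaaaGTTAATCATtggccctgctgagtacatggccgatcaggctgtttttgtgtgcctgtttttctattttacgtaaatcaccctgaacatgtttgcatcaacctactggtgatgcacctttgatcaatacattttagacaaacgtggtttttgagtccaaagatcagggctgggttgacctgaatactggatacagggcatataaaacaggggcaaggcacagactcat
SLCO1B1, chr12:21130944-21131193, plus strand: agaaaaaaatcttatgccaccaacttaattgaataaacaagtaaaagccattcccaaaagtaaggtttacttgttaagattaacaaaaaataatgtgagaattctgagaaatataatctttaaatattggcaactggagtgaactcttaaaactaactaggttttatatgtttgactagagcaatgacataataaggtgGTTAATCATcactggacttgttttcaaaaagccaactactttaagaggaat

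From these starts to the nearest region it was 28.7 kb for G6PC1, 87.4 kb for SLCO1B1, 359 kb for FGA, 441 kb for ALB and 473 kb for AFP. The same letters thus stood at starts close to and far from the mark. Over the 26 members with an entry the median distance from the start was 180 kb, and TDO2, G6PC1, FOXA1 and APOA2 were the members with a start less than 50 kb from a region.

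Measured from the edge of the gene body to the edge of the nearest region, the 38 members had a median distance of 222 kb (95% binomial interval of the median 87.3 to 339 kb). The median over all protein-coding genes was 132 kb, which lies within this interval. Of the members, 23 lay farther from a region than that median and 15 lay nearer. Counted by distance, 1 of 38 had a region within 10 kb (15.0% of all protein-coding genes), 9 within 50 kb (30.1%), 14 within 100 kb (43.2%), 19 within 200 kb (62.1%) and 34 within 500 kb (86.9%). In shares of the members these counts were 2.63%, 23.7%, 36.8%, 50% and 89.5%, below the background up to 200 kb and near it at 500 kb. By length class, the 16 members under 10 kb had a median of 298 kb, beside 172 kb over all genes of that class. The 17 members of 10 to 50 kb had 114 kb beside 145 kb, and the 5 over 50 kb had 52.9 kb beside 73.9 kb. Only the members under 10 kb thus had a longer median than genes of like length. The distances were not tested, and members of 1 locus share their neighbours.

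**Figure D1:**
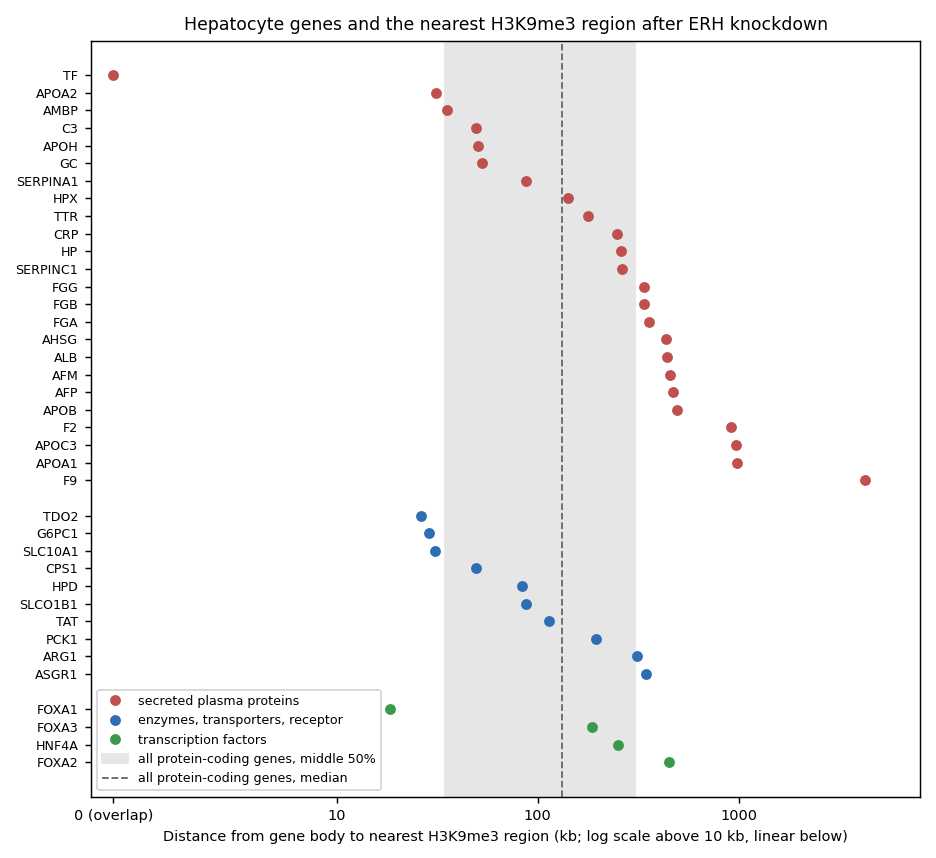
Distance from each of the 38 hepatocyte genes to the nearest H3K9me3 region, in kb on an axis that is linear below 10 kb and logarithmic above; each point is 1 gene, coloured by class, the dashed line is the median of all protein-coding genes (132 kb) and the grey band their middle 50% (34.7 to 304 kb). TF sits at 0, FOXA1 is the next nearest at 18.5 kb, and F9 lies farthest at 4241 kb.

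The medians differed by class. The 24 plasma protein genes had a median distance of 300.3 kb (95% binomial interval of the median 87.3 to 454 kb) and the 10 enzyme, transporter and receptor genes 85.3 kb (28.7 to 312 kb). These intervals overlap, and the difference was not tested. Within 200 kb of a region were 9 of 24 plasma protein genes and 8 of 10 enzyme, transporter and receptor genes. The 4 transcription factor genes lay at 18.5, 185, 252 and 451 kb. From AHSG at 432 kb outward to F9, every member other than FOXA2 encodes a plasma protein. Plasma proteins are 24 of the 38 members, and some of these distant genes are neighbours (ALB, AFP and AFM, and APOC3 and APOA1).

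**Figure D2:**
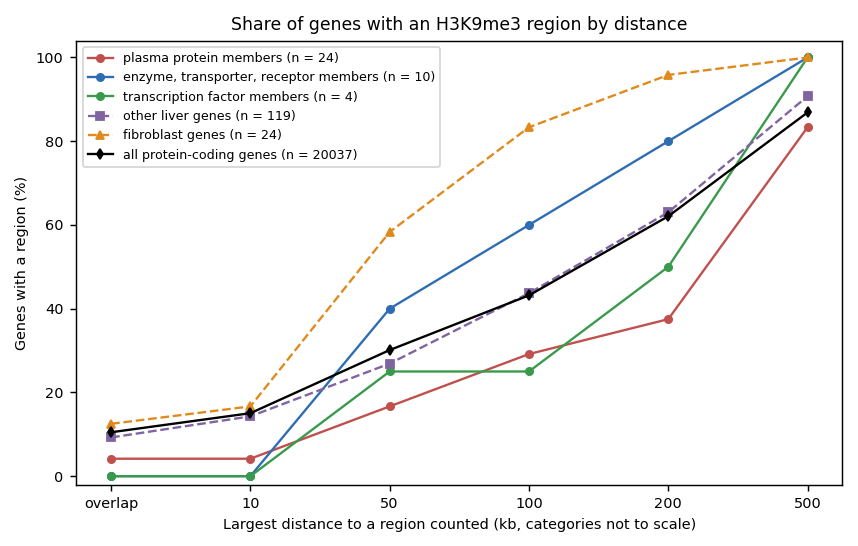
Share of genes (%, vertical axis) with an H3K9me3 region overlapping the gene body or lying within 10 to 500 kb of it (horizontal axis, categories not to scale), for the 3 classes of members, 119 other liver genes, 24 fibroblast genes and all 20037 protein-coding genes. At 200 kb the plasma protein members stand at 37.5%, all protein-coding genes at 62.1%, the enzyme, transporter and receptor members at 80.0% and the fibroblast genes at 95.8%.

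TF, on chromosome 3 from 133661998 to 133796641 on the plus strand, held a single region at 133789933 to 133795032. The region covered 5100 bp, or 3.79% of the gene body. It lay at the 3′ end: 95% of the gene body was before it, and its far edge was 1.61 kb short of the gene's end. The gene limits are the outermost ones in the RefSeq table, which holds no exons, so the region was not assigned to an exon, intron or UTR. The region also overlaps SRPRB, a gene for a subunit of the signal recognition particle receptor, and a long non-coding RNA gene. The region therefore cannot be given to TF alone. With a score of 48028 it stood above 85.5% of the regions in the list. The score is the authors' own value per region, its unit is not stated, and it grows with region length. On the side of its start, TF had no other region for 2533 kb, and beyond its end the next lay 245 kb away.

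Other genes for carrier proteins of plasma lay farther out. APOA2, a structural apolipoprotein of high-density lipoprotein on chromosome 1, was 31.3 kb from a region that lay upstream, past TOMM40L and NR1I3. AMBP, the precursor of alpha-1-microglobulin and bikunin, was 35.3 kb from a region that overlapped the neighbouring gene ZNF618. APOH, a phospholipid-binding glycoprotein, was 50.6 kb from a region that overlapped CEP112. Within 500 kb of the middle of APOH there were 8 regions on that side and 0 on the other. GC, the vitamin D carrier, was 52.9 kb from a region of 6820 bp, with no protein-coding gene between. HPX, the haem scavenger, lay 141 kb, TTR, the thyroxine and retinol carrier, 178 kb, and HP, which binds free haemoglobin, 258 kb from the nearest region. APOB, the protein of low-density lipoprotein, lay 490 kb away, and between it and the region there was 1 protein-coding gene, TDRD15. APOC3 and APOA1, which share a stretch of 7.72 kb on chromosome 11 and encode proteins of triglyceride-rich and high-density lipoproteins, lay 973 and 979 kb away. The apolipoprotein genes thus ranged from 31.3 to 979 kb.

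Albumin and its relatives form the best-known plasma protein cluster. ALB, AFP, the fetal counterpart of albumin, and AFM, a vitamin E-binding relative, lie head to tail over 99.7 kb of chromosome 4. No region fell within this cluster or near it: ALB was 441 kb, AFM 454 kb and AFP 473 kb from the nearest. All 3 sat in the same stretch of 994 kb without a region. The nearest region on the ALB side, at 72961631 to 72963602, was short (1972 bp) and had a low score of 14860, above 9.85% of the list. GC, the fourth gene of this family, lies 1599 kb from ALB on the same chromosome. At 52.9 kb it was the nearest of the 4 to a region, at 71858405 to 71865224, whose score of 62139 exceeded 90.7% of the list. The 4 related genes therefore did not share a distance to the mark.

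None of the clotting factor, fibrinogen and antithrombin genes among the members lay within 200 kb of a region. Of all protein-coding genes, 62.1% lay within 200 kb. The 3 fibrinogen genes are neighbours, the members in this grouping are few, and the difference was not tested. Among the other liver genes, F5 (52.7 kb), F11 (71.7 kb), PROC (126 kb) and F13B (138 kb) lay within 200 kb of a region. F10 (422 kb), F7 (451 kb) and F12 (874 kb) did not. These other genes were picked after their values were seen, and genes of other protease inhibitors were left out. Neither set therefore describes clotting genes in general. FGB, FGA and FGG, which encode the 3 chains of fibrinogen, lie within 49.7 kb of each other on chromosome 4 and sat together in a stretch of 726 kb without a region. Their distances were 339 kb for FGB, 359 kb for FGA and 337 kb for FGG. F2, the gene of prothrombin on chromosome 11, lay 911 kb from the nearest region, with 21 protein-coding genes between. SERPINC1, which encodes antithrombin, an inhibitor of clotting proteases, lay 263 kb away. F9, the gene of coagulation factor IX on chromosome X from 139530739 to 139563459, was the farthest member. Its nearest region, at 135275925 to 135289770, was 4241 kb away and it sat in a stretch of 9499 kb without a region. Chromosome X had 80 regions, and the median over its 848 protein-coding genes was 1188 kb. F9 ranked above 93.6% of genes by distance on its own chromosome and above 99.5% of all protein-coding genes. Without F9 the median of the members was 195 kb.

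The remaining plasma proteins belong to the acute-phase response, inflammation or protease inhibition. C3, the central complement component on chromosome 19, had a region 49.2 kb away on 1 side and another at 97.8 kb on the other, the shortest region-free stretch of any member that did not overlap (190 kb). SERPINA1, the gene of alpha-1-antitrypsin, lay 87.3 kb from a region of 2196 bp, past its relatives SERPINA11 and SERPINA9. CRP, the gene of C-reactive protein, lay 249 kb away and AHSG, the gene of fetuin-A, 432 kb. The serpin cluster of chromosome 14 extends beyond SERPINA1, and SERPINA3, an acute-phase protease inhibitor from the list of other liver genes, held a region over 32.2% of its length, at 94616775 to 94620534. In the same cluster SERPINA5 lay 23.7 kb, SERPINA4 46.9 kb, SERPINA6 155 kb and SERPINA10 185 kb from a region. Over the 6 genes of this cluster whose distances are given here, the distance thus ran from 0 to 185 kb.

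The first enzymes described act in tryptophan and tyrosine breakdown. TDO2, which starts tryptophan degradation, was the nearest of the class, on chromosome 4 from 155903696 to 155920406. Its nearest region, at 155873544 to 155877393, lay 26.3 kb upstream of the start with no protein-coding gene between, was 3850 bp long and had a score of 28590. HPD and TAT, which act in tyrosine degradation, lay 83.2 kb and 114 kb from a region. The region near TAT overlapped ZNF23, a zinc finger gene, and the region's score of 77199 exceeded 93.4% of the list. TAT and HP lie 477 kb apart on chromosome 16 within the same region-free stretch of 868 kb. CPS1 and ARG1, the first and last enzymes of the urea cycle, lay 49.1 and 312 kb from a region. For CPS1 the 49.1 kb runs from the outer limit of the gene. From the start used for its promoter window, which lies inside that limit, it was 165 kb. CPS1 is the longest member (201 kb) and had no region inside it.

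The gluconeogenic genes, the transporters and the receptor ranged from 28.7 to 347 kb. G6PC1, the catalytic subunit of glucose-6-phosphatase, lay 28.7 kb from a region over a transcribed pseudogene, AOC4P. PCK1, which catalyses an early committed step of gluconeogenesis, lay 195 kb away. SLCO1B1, a hepatic organic anion transporter, lay between regions at 87.4 kb and 87.7 kb, and its relative SLCO1B3, on the list of other liver genes, held 2 regions that took up 7.09% of it. SLC10A1, the bile acid importer of the hepatocyte, lay 30.7 kb from a region on chromosome 14 at 69741118 to 69744765. This is also the region nearest to ERH, the siRNA target, which lies 343 kb from it on the other side. ASGR1, a subunit of the receptor that clears asialoglycoproteins, was the farthest of the class, on chromosome 17 from 7173431 to 7179370. Its nearest region, at 7525991 to 7530737, was 4747 bp long with a score of 47499 and lay 347 kb away, beyond 29 protein-coding genes.

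The liver transcription factor genes lay outside the regions. FOXA1, on chromosome 14 from 37589552 to 37595249 on the minus strand, was the member nearest to a region without overlapping it. The region, at 37613764 to 37617894 and overlapping the gene TTC6, lay 18.5 kb upstream. It was 4131 bp long and had a score of 39469, above 78.7% of the list. Within 500 kb of the middle of FOXA1 there were 8 regions on the upstream side and 0 downstream, where the next lay 1746 kb away. FOXA3, on chromosome 19, showed the same one-sided layout, with 7 regions on the downstream side and 0 on the other. HNF4A and FOXA2 were one-sided too, each with 2 regions on 1 side and 0 on the other. The layout was not particular to this class, since 17 members in all had regions on 1 side only. Its share over all protein-coding genes was not taken. HNF4A, the nuclear receptor at the centre of the hepatocyte network, lay 252 kb downstream of its nearest region, with 5 protein-coding genes between. FOXA2, on chromosome 20 from 22580998 to 22585490, was the farthest at 451 kb from a region of 4209 bp at 22125401 to 22129609 with a score of 20210. FOXA2 had no other protein-coding gene in that stretch. FOXA1 and FOXA2 were therefore the nearest and the farthest gene of the class.

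**Figure D3:**
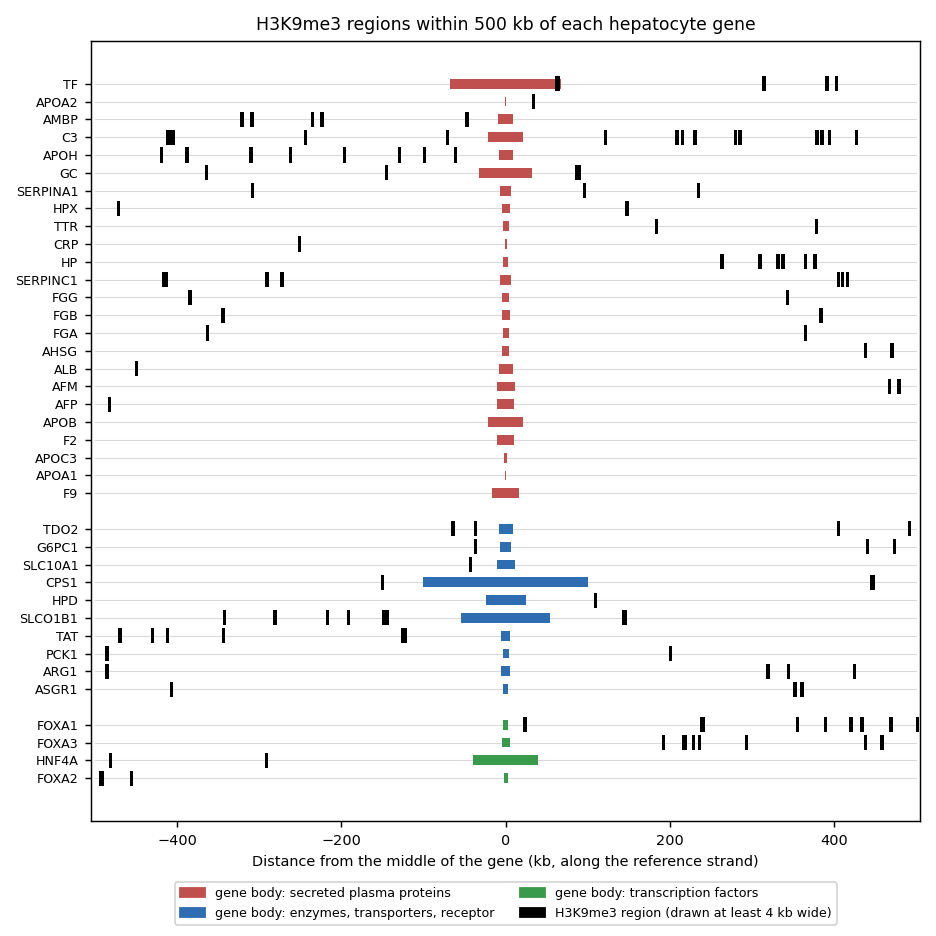
H3K9me3 regions (black, drawn at least 4 kb wide) within 500 kb of the middle of each hepatocyte gene (coloured gene bodies, 1 row per gene, ordered by distance within each class), with the distance from the gene's middle in kb along the reference strand on the horizontal axis. In 5 rows there is no region, in 17 rows without overlap regions lie on 1 side only, and TF alone has a region on the gene body. These layouts were not counted over all protein-coding genes.

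Within 500 kb of the gene's middle, 15 members had regions on both sides and 17 had them on 1 side only. In 5 (APOB, F2, APOC3, APOA1 and F9) there were none, and TF, with its region inside, is not counted among these. The counts were not taken over all protein-coding genes and describe the members only. Measured from the gene body, 89.5% of the members had a region within 500 kb, beside 86.9% of all protein-coding genes. In the 2 Mb around a member (1 Mb on either side of its middle) regions covered a median of 1.28% (95% binomial interval of the median 0.922 to 1.64%), beside 1.08% around all protein-coding genes. The members thus stood in neighbourhoods with about as much of the mark as genes have in general, and 21 of 38 lay above the general median. The number of regions in the 2 Mb ran from 0 for F9 to 16 for C3, with a median of 7.5. SERPINC1 had the highest cover, 3.06%, although its nearest region was 263 kb away. C3 had 2.96%, ARG1 2.89% and FOXA1 2.80%. APOA2, 31.3 kb from a region, had 0.315%, and F2 (0.127%), APOC3 and APOA1 (0.128% each) and F9 (0%) had the lowest. Genes near a region thus did not all stand in highly covered neighbourhoods, nor distant genes in bare ones.

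**Figure D4:**
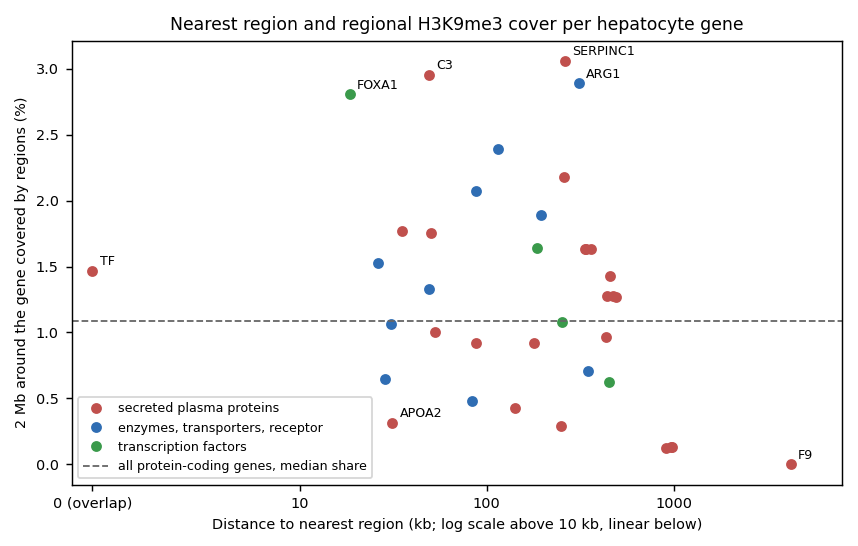
Share of the 2 Mb around each hepatocyte gene covered by H3K9me3 regions (%, vertical axis) against the distance to the nearest region (kb, linear below 10 kb and logarithmic above); each point is 1 gene, coloured by class, and the dashed line is the median share of all protein-coding genes (1.08%). SERPINC1 and ARG1 combine high cover with distances of 263 and 312 kb, and APOA2 combines low cover with 31.3 kb.

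The 38 members had 35 different nearest regions, since ALB and AFP, FGA and FGB, and APOA1 and APOC3 each shared 1. Their lengths and scores were close to those of the list as a whole. Their median length was 3520 bp against 3530 bp over all regions, and their scores ran from 13032 to 93940, around a median of 26525, against a median of 24180. At or above the list's median score were 18 of the 35. Only the region nearest F9 was at least 10 kb long, of 565 such regions in the list. Of the 35, 11 overlapped protein-coding genes, 3 of them zinc finger genes (ZNF618, ZNF23 and ZNF75D), 7 only other annotated genes and 17 no annotated gene. Where the gene's strand was known and the region lay outside the gene, it was upstream of 15 members and downstream of 10. No shares over all regions or all genes are given beside these counts, so they describe the members only.

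Members within 1 Mb of each other were joined into loci, which gave 32 loci, 28 of them with a single member. Taking the nearest member of each locus, the median distance was 160 kb. That is nearer to the 132 kb of all protein-coding genes than the 222 kb over single genes. The 132 kb was not taken by locus, however, and taking the nearest member of a locus can only shorten a distance. The 160 kb and 132 kb are therefore unlike measures. The albumin, fibrinogen and APOA1 clusters, all over 300 kb from a region, count once per gene in the 222 kb and once per cluster in the 160 kb.

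The same measures were taken for 119 other liver genes. Of 55 other plasma protein genes, 5 overlapped a region (9.09%), of 44 other enzymes and transporters 5 did (11.4%), and of 20 other transcription factors 1 did (5.00%). Together this was 11 of 119 (9.24%, Wilson 95% interval 5.24 to 15.8%), and their median distance was 125 kb. By class the medians were 185 kb, 76.0 kb and 156 kb, in the same order as among the members. The intervals of these medians overlap, the median gene lengths differed (13.6, 29.0 and 35.8 kb), and the order was not tested. The plasma protein genes that overlapped included SERPINA3, C4BPA (7.19% covered), a regulator of complement, LPA (2.80%), the apolipoprotein of lipoprotein(a), and C6 (2.32%), a complement component. ADH4, an alcohol dehydrogenase, was covered over 12.5% by a region at 99127900 to 99130478 on chromosome 4. SLCO1B3, ALDH1L1 (6.62%), a folate enzyme, ABCC6 (4.70%), a transporter, and LIPC (2.59%), hepatic lipase, were the other 4 of their class. The 1 transcription factor was PPARA (2.16%), a regulator of fatty acid oxidation. Relatives in the members' own loci were at similar distances in some cases and nearer in others. APOA4 lay 964 kb and APOA5 932 kb from a region beside APOA1, and FETUB lay 400 kb, HRG 375 kb and KNG1 309 kb from one beside AHSG. APCS, a relative of CRP, lay 125 kb away, and SERPINA3 and SLCO1B3 held regions where SERPINA1 and SLCO1B1 did not. These lists were written from general knowledge of liver genes.

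Beside the other groups measured, the members had the longest median distance per gene, 222 kb. The 95% binomial interval of that median, 87.3 to 339 kb, overlaps that of the other liver genes (80.4 to 184 kb). It also overlaps that of the cytochrome P450 and UGT genes (46.7 to 123 kb). Taking the nearest member of each locus, the median of the members was 160 kb. Cytochrome P450 and UGT genes, enzymes of drug and steroid metabolism many of which are liver genes too, overlapped regions in 10 of 78 cases (12.8%) and had a median distance of 76.5 kb. These 78 entries are not independent. The UGT1A entries have a common end, and CYP3A7 and CYP3A7-CYP3A51P were counted for the same region. Fibroblast genes, which include collagens and other genes typical of this cell type, overlapped in 3 of 24 cases (12.5%: DCN, PDGFRA and COL5A2) and had a median distance of 43.9 kb (95% binomial interval of the median 21.9 to 73.3 kb). This interval lies below that of the 38 members. Both intervals treat genes as independent, and the fibroblast list holds neighbouring genes too, among them collagen genes. The fibroblast genes are also longer, with a median of 37.4 kb against 13.6 kb for the members, and length was not matched. They stood in neighbourhoods with a median cover of 1.75%. Zinc finger genes, the group best known for H3K9me3, overlapped in 310 of 566 cases (54.8%). None of these differences was tested, and expression, which would show whether the cells carry a fibroblast programme, was not measured in the list.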

How the data were processed

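CUT&RUN for H3K9me3 in BJ fibroblasts with ERH siRNA gave 1 deposited list that the authors merged over 3 samples. Per the submitters' processing notes the build is hg38 and the tools named are Bowtie2 2.3.4.1, SAMtools 1.16.1, R 3.6.3, deepTools 3.5.0, bedtools 2.27.1 and SEACR 1.3; their roles, the threshold, any control library and the way of merging are not given in the sources used here. The deposited score of each region has no stated unit. A further deposited column without a header was read as a piece number, since 17 rows have a number above 1 and all repeat the score of another row, some of them on another chromosome; none is the nearest region of a member. Whether the coordinates were converted from another build is not given in the sources used here.

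Genes and strands came from RefSeq tables of GRCh38.p14. Overlap (at least 1 bp), covered share, distance and cover of the 2 Mb around each gene were computed with Python 3.11.15, numpy 2.4.6 and pandas 2.3.3, intervals with scipy 1.17.1 and figures with matplotlib 3.10.9. The interval arithmetic was tested on simulated data against counts made base by base, with 0 mismatches in 500 checks. Named genes were all 38 members, with full positions for those overlapping or within 10 kb of a region and for the nearest and farthest of each class, and up to 5 overlapping genes per other list; clotting genes and the neighbours of SERPINA1, SLCO1B1, CRP, APOA1 and AHSG were added after their values were seen. Of the overlapping other plasma protein genes, 1 is not reported by name here. Members and lists were chosen with earlier results of these data known.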

Additional observations from a re-analysis of the deposited data

How the results depend on the processing

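The alternatives gave 65 values for 10 results. Of these, 58 lay inside the reported interval or, where the result is a count, differed from it by less than 1.5 times. The count of overlapping members was 1 under all 7 alternatives tried for it: regions of at least 2 kb, joined within 5 kb, at or above the median score, with at most 20 score units per bp, without repeated pieces, a cover of at least 1% and gene bodies widened by 5 kb. None of them could have changed it. The region in TF (5100 bp, 9.42 score units per bp, 3.79% cover) meets every condition. The next member, FOXA1, lay 18.5 kb from a region, beyond the 5 kb of joining or widening. The counts per class were fixed in the same way, so these settings do not test the counts of overlap. A score at or above the median as a condition removes the weaker regions by construction. It moved the median distance to 396 kb over all members (264 kb over all protein-coding genes), 472 kb for plasma proteins and 327 kb for enzymes, transporters and receptor, left 8 members within 100 kb and gave 0.778% cover around members. Within 50 kb there were 9 members in place of 14 within 100 kb, and the 500 kb on either side of members were covered to 0.736%. The list has no read depth, so weak regions below the authors' threshold cannot be seen. No paired analysis was possible because the file pools all replicates of 1 group in 1 list.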
